A study of Drosophila sechellia and Drosophila melanogaster and Drosophila simulans with 18 samples.

Results

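Cytochrome P450 genes were examined in whole adult females of *D. melanogaster* and *D. simulans* fed for 24 hr on food with L-DOPA (10 mg/ml) or on control food. They were found as the rows whose gene symbol starts with Cyp and a number. This gave 86 rows in the *D. melanogaster* table, 5 in the *D. simulans* table and 0 in the *D. sechellia* table, where 16284 of 17273 genes have a numbered symbol in place of a name. One of the rows, *Cyp1*, encodes a cyclophilin, a protein folding enzyme, and not a P450, so it was left out once the table had been read. That left 90 P450 genes found by symbol (85 and 5) among the 50294 genes of the 3 tables. In *D. simulans* 14820 of 15372 genes have a numbered symbol, so the 5 are those that happen to be named and do not stand for the P450 genes of that species. The *D. melanogaster* flies were of strain 14021-0231.36, with 3 libraries on L-DOPA food and 3 on control food. The *D. simulans* flies were of strain 14021-0251.195, again with 3 libraries from flies on L-DOPA food and 3 from flies on control food. By the study's methods the females were collected within 3 days of eclosion and each library, a biological replicate, was made from 10 of them. No group carried a transgene or a mutation by its label, and each species was represented by 1 strain.

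Expression is given in FPKM, a read count scaled to gene length and sequencing depth, with 1 value per gene and food that the authors' software combined over the 3 libraries. These values have no SD and no n, the tables do not give the number of reads behind them, and no test between foods was made. A gene was called higher or lower on L-DOPA where the FPKM values differed at least 2-fold, with 1.5-fold as a second limit. For these calls a gene had to reach an FPKM of 1 on one food or the other and be detected on both. Changes are log2 ratios without a pseudocount, and a positive change is a higher value on L-DOPA. In RNA from whole flies, fewer cells of a type and less RNA per cell cannot be told apart.

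P450 enzymes hold a haem group and add an atom of oxygen to their substrates. Those of the endoplasmic reticulum receive electrons from the P450 reductase encoded by *Cpr*, and those of mitochondria receive them through a ferredoxin. In insects the families Cyp6 and Cyp9, which belong to the CYP3 clan, and many Cyp4 members are known for the oxidation of plant toxins and insecticides in gut, Malpighian tubule and fat body. Others make or break down ecdysone, cuticular hydrocarbons and other signals of the fly itself. Many P450 genes lie in tandem clusters and are close copies of each other.

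In *D. melanogaster* the P450 genes with the largest differences were *Cyp6a8*, *Cyp309a1* and *Cyp9b2*, all of the CYP3 clan, and all 3 were higher on L-DOPA. Of the 85 genes, 72 passed the filter, and 3 of these were at least 2-fold higher on L-DOPA, against 1.17% of all 10490 genes passing the same filter. None was at least 2-fold lower (0 of 72), where 0.963% of all genes were. At the 1.5-fold limit, 4 P450 genes were higher (3.35% of all genes) and 1 was lower (2.25% of all genes). The remaining 67 of the 72 genes differed by less than 1.5-fold between the foods. A log2 change above 0 was found for 42 of the 72 genes (58.3%), against 50.9% of all genes. The median log2 change of the P450 genes was 0.08, with an interquartile range from -0.07 to 0.23, while that of all genes was 0.00, with an interquartile range from -0.09 to 0.10.

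*Cyp6a8* (FBgn0013772) encodes an enzyme that hydroxylates fatty acids and is known for induction by caffeine and phenobarbital. It lies on BDGP6 chromosome arm 2R from 14887171 to 14889010 and has 2 exons. Its FPKM was 23.8 on L-DOPA food and 6.03 on control food, a 3.94-fold difference and a log2 change of 1.98. This was the largest change among the 72 genes, and *Cyp6a8* was at rank 12 by level among the 85 genes on L-DOPA food, against rank 51 on control food. The second was *Cyp309a1* (FBgn0031432), on chromosome arm 2L from 2562483 to 2564830, with 6 exons. It had an FPKM of 10.2 on L-DOPA food and 3.42 on control food, a 2.98-fold difference and a log2 change of 1.57.

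The third, *Cyp9b2* (FBgn0015039, chromosome arm 2R from 7130277 to 7132139, 4 exons), had an FPKM of 4.30 on L-DOPA food and 2.04 on control food. Its log2 change of 1.08 lay just past the 2-fold limit, and with a pseudocount of 1 it was 0.80 and no longer past it. These 3 genes had lower control levels than the median P450 gene, which stood at an FPKM of 7.15. The share of genes at least 2-fold higher on L-DOPA was therefore also taken by level on control food, a sorting chosen after the data were seen. At a control FPKM of 1 to 5, it was 2 of 16 P450 genes (*Cyp309a1* and *Cyp9b2*) and 1.83% of all genes. At 5 to 10, it was 1 of 21 P450 genes (*Cyp6a8*) and 0.727% of all genes. Of the P450 genes at 10 to 50, 0 of 28 were at least 2-fold higher, where 0.638% of all genes were. At 50 or more, it was 0 of 6 P450 genes and 0.635% of all genes. The control value is also the denominator of the ratio. Genes below a control FPKM of 1 pass the filter only through the L-DOPA value. There, 25.2% of all genes and 0 of 1 P450 genes were at least 2-fold higher. The mean FPKM of both foods is itself lifted by a higher L-DOPA value. Sorted by it, the shares of all genes were 2.19% at 1 to 5, 0.896% at 5 to 10, 0.665% at 10 to 50 and 1.07% at 50 or more. In these ranges 1 of 17, 1 of 21, 1 of 28 and 0 of 6 P450 genes were at least 2-fold higher.

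*Cyp6a2* (FBgn0000473), an enzyme known for DDT resistance and for induction by phenobarbital, was the other gene past 1.5-fold in this direction. It had an FPKM of 11.9 on L-DOPA food and 6.28 on control food, a log2 change of 0.92. It lies on chromosome arm 2R from 6779749 to 6781491, inside the gene *Epac* on the same strand, with 0 exonic bases shared. The 1 gene past 1.5-fold in the other direction was *Cyp4e3* (FBgn0015035, chromosome arm 2L from 9747839 to 9750071, 6 exons), which is known for a role in permethrin tolerance. Its FPKM was 8.67 on L-DOPA food and 15.1 on control food, a log2 change of -0.80.

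**Figure D1:**
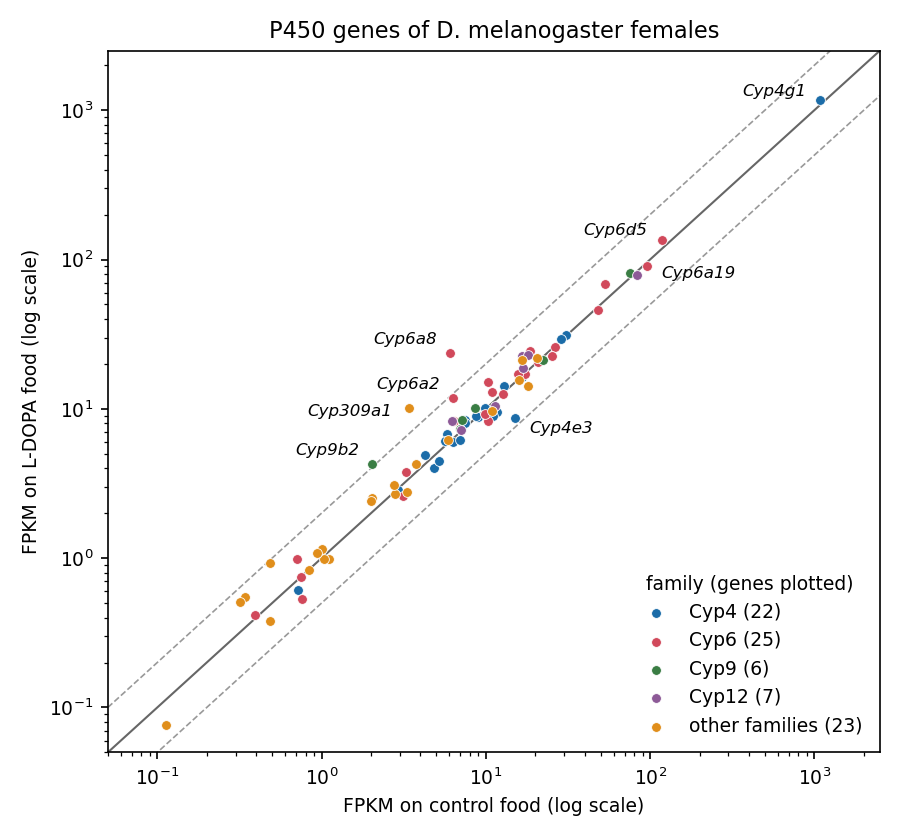
FPKM of the *D. melanogaster* P450 genes on L-DOPA food (vertical axis) and on control food (horizontal axis), both on log scales, 1 point per gene and coloured by family. The solid line marks equal values and the dashed lines a 2-fold difference. *Cyp6a8* (23.8 and 6.03), *Cyp309a1* (10.2 and 3.42) and *Cyp9b2* (4.30 and 2.04) lie above the upper dashed line, and 2 genes listed at 0 on both foods are not drawn.

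By family, Cyp6 held the widest spread toward higher values and Cyp4 the only gene past 1.5-fold in the other direction. Cyp6 had 25 genes, of which 21 passed the filter. Their log2 changes ran from -0.32 to 1.98 with a median of 0.13, and 11 were above 0. Among all genes passing the filter 50.9% were above 0, the share to set beside the count of each family. Cyp4 had 22 genes, of which 21 passed, with changes from -0.80 to 0.23, a median of 0.01 and 11 above 0. Cyp9 had 6 genes and all passed, with changes from -0.05 to 1.08, a median of 0.16 and 5 above 0. Cyp12, a mitochondrial family, had 7 genes and all passed, with changes from -0.12 to 0.44, a median of 0.16 and 5 above 0. The other families had 25 genes, of which 17 passed, with changes from -0.35 to 1.57, a median of 0.10 and 10 above 0. The families hold few genes, many of them neighbours with related sequences, and differences between families were not tested.

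**Figure D2:**
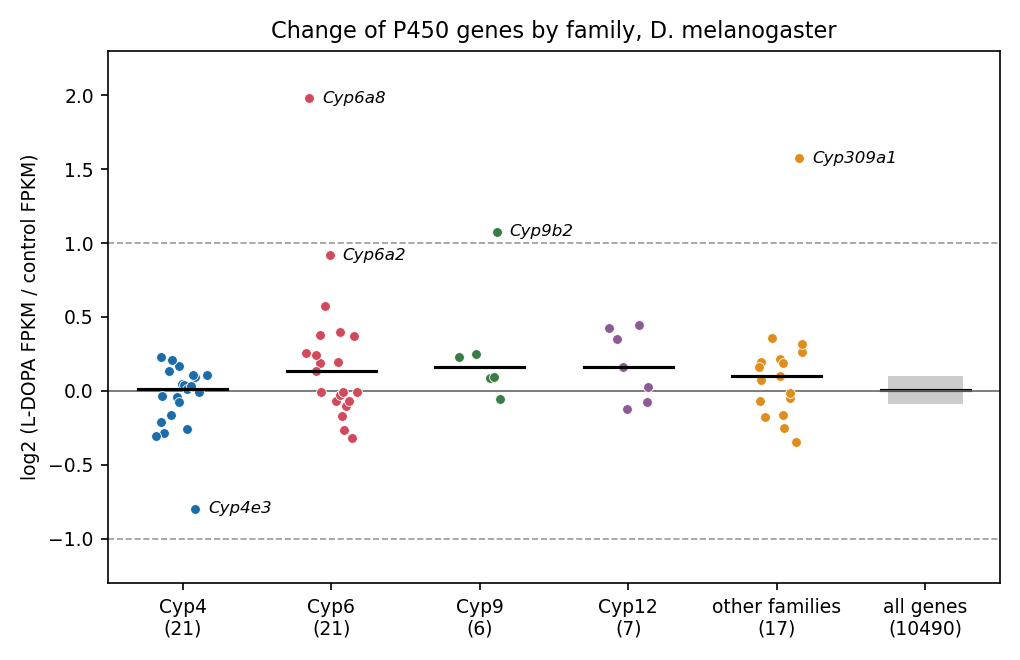
Log2 change of the 72 *D. melanogaster* P450 genes that passed the filter, by family, 1 point per gene, with the number of genes under each name and a black line at the family median. The grey box gives the interquartile range of all 10490 genes (-0.09 to 0.10) and its line their median, and the dashed lines mark a 2-fold difference. The genes past 1.5-fold are named, from *Cyp6a8* at 1.98 to *Cyp4e3* at -0.80.

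Grouped by clan, the CYP3 clan was the largest, with 33 of the 72 genes that passed and a median log2 change of 0.13. All 4 P450 genes at least 1.5-fold higher belonged to it, where 3.35% of all genes were that much higher. The 26 genes of the CYP4 clan had a median of 0.03. The mitochondrial clan had 9 genes found by symbol, 7 of them above 0, where 50.9% of all genes were. Their median was 0.20 and none was past 1.5-fold. This clan also holds *shd*, *dib* and *sad*, which are listed under other names and were not counted. Of these, *shd* was past 1.5-fold lower on L-DOPA (log2 change -0.66), and *dib* (-0.01) and *sad* (-0.002) were close to equal. The 4 genes of the CYP2 clan found by symbol lay between -0.17 and -0.02. Its members *phm* (log2 change 0.09) and *spo* (0.06), listed under other names and not counted, were above 0. A further such member, *spok*, did not pass the filter. This clan includes *Cyp18a1*, whose enzyme inactivates ecdysone, with an FPKM of 9.74 on L-DOPA food and 11.0 on control food. It also includes *Cyp303a1*, needed for bristle development, at 0.987 on L-DOPA food and 1.04 on control food.

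Expression of the whole group was dominated by *Cyp4g1* (FBgn0010019, chromosome X from 467057 to 469335, 1 exon), the oenocyte enzyme of the last step of hydrocarbon synthesis. Its FPKM was 1173 on L-DOPA food and 1089 on control food, a log2 change of 0.11. Its FPKM was close to the sum of all other P450 genes. The 85 genes summed to an FPKM of 2396 on L-DOPA food and 2228 on control food, a log2 change of 0.11. Without *Cyp4g1* the sums were 1223 and 1139, a log2 change of 0.10. Family sums differed little between the foods. Cyp6 summed to 592 on L-DOPA food and 530.1 on control food, and Cyp12 to 169 on L-DOPA food and 159 on control food. Cyp9 summed to 133 on L-DOPA food and 123 on control food, and the other families to 125 on L-DOPA food (log2 change 0.12). Cyp4 without *Cyp4g1* was the 1 group with a lower sum on L-DOPA, at 204 against 212 on control food.

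**Figure D3:**
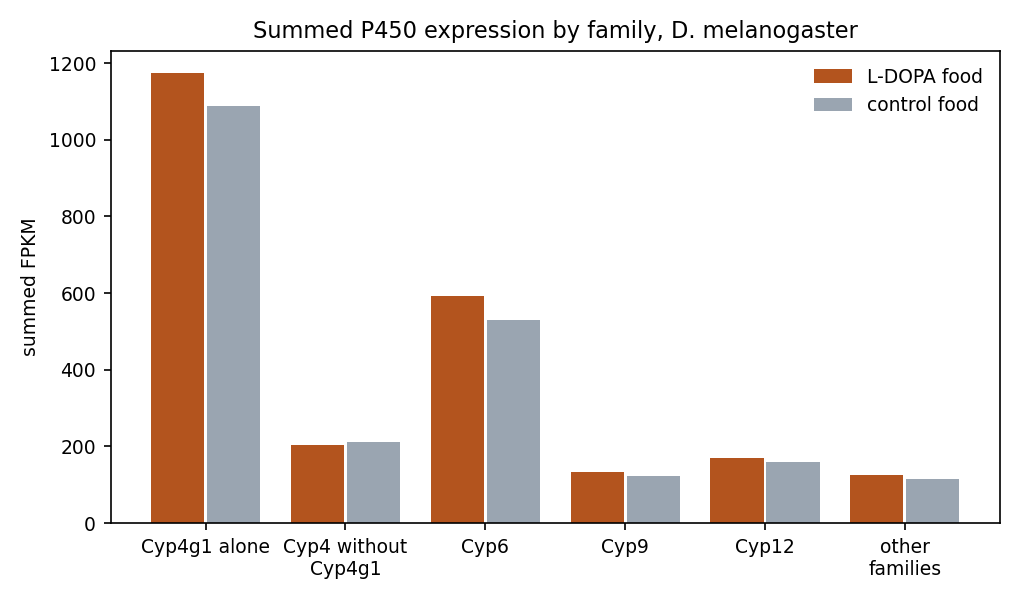
Summed FPKM of the P450 families of *D. melanogaster* on L-DOPA food (left bars) and on control food (right bars), with *Cyp4g1* drawn apart from the other Cyp4 genes. Bars are sums of the authors' combined values and have no error bars. *Cyp4g1* alone (1173 and 1089) stands above every family sum.

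The abundant P450 genes were close to equal on both foods. The 10 genes with the highest mean FPKM held 73.5% of the summed P450 FPKM on L-DOPA food and 74.0% on control food, and their log2 changes ran from -0.08 to 0.38. After *Cyp4g1* came *Cyp6d5*, with an FPKM of 136 on L-DOPA food and 119 on control food. *Cyp6a19* had 91.0 on L-DOPA food and 95.5 on control food. The next gene, *Cyp12a4*, is known for resistance to the insecticide lufenuron, and had 78.8 on L-DOPA food and 83.1 on control food. *Cyp9f2* had 81.2 on L-DOPA food and 75.9 on control food. *Cyp6g1*, known for resistance to DDT and neonicotinoids, had the largest change of the 10, with 69.0 on L-DOPA food and 53.1 on control food (log2 change 0.38). *Cyp6v1* had 46.2 on L-DOPA food and 48.5 on control food. The last 3, *Cyp4e2*, *Cyp4p1* and *Cyp6a13*, lay between 26.1 and 31.1 on L-DOPA food and between 26.3 and 30.9 on control food. By level, 35 P450 genes had an FPKM of at least 10 on L-DOPA food and 34 on control food, and 70 had at least 1 on L-DOPA food and 71 on control food.

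Smaller differences, between 1.2-fold and 1.5-fold, were sorted by a limit chosen after the values were seen. They were found for 10 genes with higher and 5 with lower values on L-DOPA, and 52 of the 72 genes lay within 1.2-fold. The share of all genes between these limits was not taken, so these counts only describe the P450 genes. The higher group includes both copies of *Cyp12d1*, a gene known for induction by caffeine and phenobarbital. *Cyp12d1-d* had an FPKM of 22.6 on L-DOPA food and 16.6 on control food, and *Cyp12d1-p* had a log2 change of 0.35. The copies are almost identical, so how their reads were divided is uncertain. *Cyp12c1* had 8.30 on L-DOPA food and 6.19 on control food. Cyp6 genes outside the largest cluster were *Cyp6w1* (log2 change 0.40), *Cyp6g1* (0.38) and *Cyp6d2* (0.37), the last known for camptothecin resistance. *Cyp28d1* (0.36) belongs to a family known from *D. mettleri* for induction by cactus alkaloids. *Cyp49a1* (0.32) and *Cyp313b1* (0.26) complete the group, with *Cyp6a23* (0.57). The lower group held *Cyp313a1* (log2 change -0.35), *Cyp6a18* (-0.32), *Cyp4s3* (-0.31), *Cyp4d14* (-0.29) and *Cyp6g2* (-0.27). *Cyp6g1* and *Cyp6g2* overlap at their ends on opposite strands, with 94 exonic bases shared, and had changes of opposite sign.

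Of the 85 genes, 35 lay on chromosome arm 2R, 16 on 3R, 14 on 2L, 14 on X and 6 on 3L. Neighbours were defined as genes whose table spans lie within 20 kb, and such a span can cover several overlapping genes. By this definition 49 of the 85 genes lay in 16 clusters of P450 genes. Each of the 3 genes past 2-fold lay in a cluster, and none of its cluster neighbours was past 1.5-fold with an FPKM of at least 1. *Cyp9b1*, beside *Cyp9b2*, had an FPKM of 7.35 on L-DOPA food and 6.93 on control food (log2 change 0.08). *Cyp309a2*, beside *Cyp309a1*, had a log2 change of 0.93 like its neighbour in sign, but stood at only 0.925 on L-DOPA food and 0.485 on control food and did not pass the filter. *Cyp6a8* lay in the largest cluster, which held 9 genes.

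In that cluster *Cyp6a8* stood apart from the genes around it. Its nearest neighbour *Cyp6a21* had an FPKM of 13.0 on L-DOPA food and 10.9 on control food (log2 change 0.26). *Cyp6a23* had 15.2 on L-DOPA food and 10.2 on control food (0.57), next to *Cyp6a17*, known for a role in temperature preference, with 20.5 on L-DOPA food and 20.7 on control food (-0.01). *Cyp6a17* and *Cyp6a23* are close copies, and reads could be split between them. The remaining genes were slightly lower on L-DOPA. *Cyp6a22* had a log2 change of -0.17, *Cyp6a19* of -0.07 and *Cyp6a9* of -0.03. *Cyp6a20*, known for a role in male aggression, had -0.10, and *Cyp317a1* had -0.25. *Cyp6a19* and *Cyp6a9* share 397 exonic bases on opposite strands, so reads from their overlap could count for either.

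**Figure D4:**
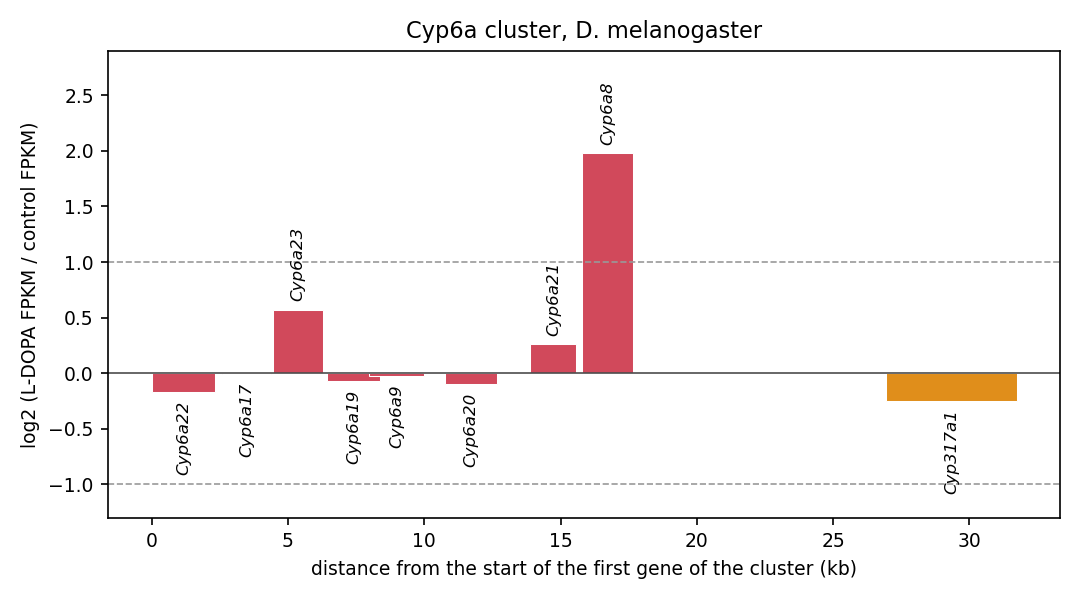
Log2 change of the 9 genes of the largest P450 cluster of *D. melanogaster* by distance in kb from the start of its first gene, each bar as wide as its gene. Dashed lines mark a 2-fold difference. *Cyp6a8* (1.98) is past the line, and the other 8 genes lie between -0.25 and 0.57.

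The genes that did not pass the filter numbered 13. *Cyp313a2* and *Cyp313a5*, neighbours on chromosome arm 3R, were listed at 0 on both foods, and 11 others were below an FPKM of 1 on both. Among these 11 was *Cyp6t3*, known for ecdysone synthesis in the larval prothoracic gland, at 0.748 on L-DOPA food and 0.755 on control food. They also included both annotated pseudogenes, *Cyp6a15Psi*, at 0.982 on L-DOPA food and 0.710 on control food, and *Cyp6t2Psi*, at 0.419 on L-DOPA food and 0.392 on control food. The larger ratios here rest on values too low to read. *Cyp28c1* stood at 0.551 on L-DOPA food and 0.341 on control food, and *Cyp313a3* at 0.511 on L-DOPA food and 0.320 on control food. *Cyp316a1* was the lowest gene above 0, at 0.0760 on L-DOPA food and 0.113 on control food. The others were *Cyp4c3*, *Cyp6a16*, *Cyp309a2*, *Cyp310a1* and *Cyp312a1*.

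The redox partners of P450 enzymes changed about as much as the typical P450 gene. Their median was 0.06 in log2, against 0.08 for the 72 P450 genes that passed the filter. All 5 partners found were above 0, where 50.9% of all genes were, and *Fdx2* lay above the P450 upper quartile of 0.23. However, *Cpr*, *Cyt-b5* and *dare* lay within the interquartile range of all genes (-0.09 to 0.10). By symbol, 5 of the 6 listed redox partners were matched, and 0 of them were past 1.5-fold. Of all genes, 3.35% were at least 1.5-fold higher and 2.25% at least 1.5-fold lower. *Cpr* had an FPKM of 225 on L-DOPA food and 218 on control food, and *Cyt-b5*, an electron donor, had 713 on L-DOPA food and 688 on control food. The mitochondrial partners were *dare* (log2 change 0.06), *Fdx1* (0.14) and *Fdx2* (0.30). Of 4 listed regulators of detoxification genes, 0 were past 1.5-fold. The transcription factor gene *cnc* had 46.7 on L-DOPA food and 48.0 on control food, and its inhibitor gene *Keap1* had 3.39 on L-DOPA food and 3.34 on control food. The partner gene *maf-S* had 135 on L-DOPA food and 156 on control food, and the nuclear receptor gene *Hr96* had a log2 change of 0.05. Of 6 P450 genes of ecdysone synthesis listed under other names, 5 passed the filter. Of these, 1, *shd*, was at least 1.5-fold lower on L-DOPA, where 2.25% of all genes were. It had an FPKM of 1.34 on L-DOPA food and 2.11 on control food (log2 change -0.66). The log2 changes of *dib*, *phm*, *spo* and *sad* lay between -0.01 and 0.09.

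Tissue markers were read beside these values. In *D. melanogaster* 0 of 6 male markers reached an FPKM of 1. The 3 yolk protein genes summed to 17299.7 on L-DOPA food and 19234 on control food. All 6 eggshell genes were lower on L-DOPA, with a sum of 5714 against 8843 on control food, where 50.9% of all genes were higher. Of the 6, 3 were at least 2-fold lower (0.963% of all genes), while *Cp36* (log2 change -0.21) and *Cp38* (-0.19) changed little. The 6 midgut genes summed to 8073 on L-DOPA food and 8947 on control food. Of the 6, 2 were higher and 4 lower on L-DOPA, with log2 changes from -0.36 to 0.99. The highest, *Mal-A1*, was the 1 midgut gene at least 1.5-fold higher on L-DOPA, where 3.35% of all genes were. Of the tubule markers, *Uro* was at 50.5 on L-DOPA food and 26.1 on control food, *Irk3* at 16.4 on L-DOPA food and 22.7 on control food, and *ZnT35C* at 24.0 on L-DOPA food and 20.9 on control food. For oenocytes and fat body 2 of 3 and 2 of 4 listed genes were matched by symbol, and none was past 1.5-fold. The oenocyte marker *eloF* was at 128 on L-DOPA food and 127 on control food, and *FarO* at 8.36 on L-DOPA food and 7.84 on control food. The fat body marker *apolpp* was at 112 on L-DOPA food and 116 on control food, and *Lsp2* at 77.0 on L-DOPA food and 70.6 on control food. Their part in the P450 values was not tested.

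In *D. simulans* the table names only 5 P450 genes by symbol, and among these 5 the largest value and difference were those of *Cyp6a26* (FBgn0068665). Its FPKM was 46.0 on L-DOPA food and 18.1 on control food, a 2.54-fold difference and a log2 change of 1.34. It was the 1 gene at least 2-fold higher on L-DOPA among the 4 that passed the filter, against 1.21% of all 9511 genes passing it. None of the 4 was at least 2-fold lower, where 0.599% of all genes were. The counts at 1.5-fold were also 1 and 0, against 3.06% of all genes higher and 2.72% lower. All 4 genes had a log2 change above 0, against 35.2% of all genes, whose median was -0.08. The table places *Cyp6a26* on ASM75419v3 chromosome arm 2R, in a span of overlapping genes from 3511884 to 3552013, and the *D. melanogaster* table has no gene of that symbol.

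The other symbols stand in both tables. *Cyp4d2* had an FPKM of 14.6 on L-DOPA food and 12.2 on control food in *D. simulans* (log2 change 0.25), and 7.99 on L-DOPA food and 7.49 on control food in *D. melanogaster* (0.09). *Cyp4d1* had 9.75 on L-DOPA food and 8.56 on control food in *D. simulans* (0.19), and 8.98 on L-DOPA food and 8.70 on control food in *D. melanogaster* (0.05). These neighbours were thus within 1.2-fold between the foods in both species. With the median change of all *D. simulans* genes subtracted, *Cyp4d2* (0.33) and *Cyp4d1* (0.27) were just past 1.2-fold in that species. *Cyp4g15*, expressed in the brain in *D. melanogaster*, had 1.88 on L-DOPA food and 1.66 on control food in *D. simulans* (0.18), and 6.20 on L-DOPA food and 6.94 on control food in *D. melanogaster* (-0.16). *Cyp28c1* was below an FPKM of 1 in both, at 0.188 on L-DOPA food and 0.189 on control food in *D. simulans*. The tables were aligned and normalized separately, so levels are not compared between the species, and differences in the response between species were not tested.

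**Figure D5:**
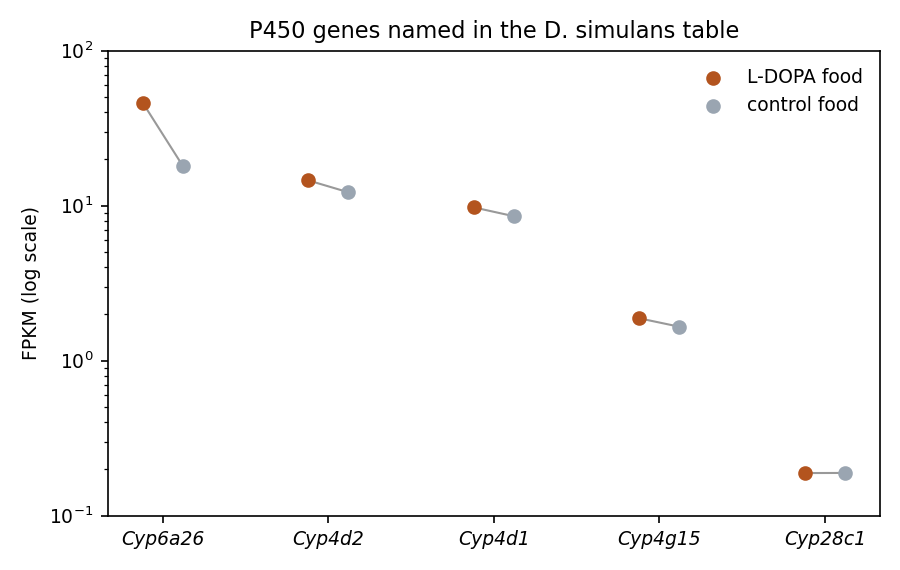
FPKM of the 5 P450 genes named in the *D. simulans* table on L-DOPA food (left points) and on control food (right points), on a log scale, with a line joining the 2 values of a gene. *Cyp6a26* (46.0 and 18.1) is the only gene of the 5 with a difference of at least 2-fold.

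Of the *D. simulans* marker genes, *Yp2*, which encodes a yolk protein, was at 22707 on L-DOPA food and 16329 on control food. The eggshell gene *Cp16* was at 4509 on L-DOPA food and 4784 on control food, and the midgut gene *Mal-A1* at 329 on L-DOPA food and 117 on control food. None of the 4 male markers in the table reached an FPKM of 1. Their part in the value of *Cyp6a26* was not tested.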

How the data were processed

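Per the study's methods, single-end reads of mRNA-selected libraries from whole females were checked with FastQC and aligned with Bowtie2 (default parameters) to BDGP6 (*D. melanogaster*) or ASM75419v3 (*D. simulans*). Cuffdiff was then run on Ensembl annotations with geometric normalization and gene length correction. Tool versions are not given in the sources used here. The authors' deposited FPKM values are 1 per gene and food, combined over 3 libraries, so the tables give neither the spread nor the depth per library, and no model was fitted. The read totals that the study lists for each library were not used here. The tables also hold the authors' fold changes, test scores and p- and q-values, which were not used. Bowtie2 does not split reads over introns, and neither the handling of reads that match several copies nor the strand setting is given in the sources used here. These steps bear on clustered P450 genes.

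From the FPKM values, log2 changes, counts past 2-fold and 1.5-fold, medians and sums were computed over P450 genes and over all genes. The members and lists were chosen with earlier results of these data known. All members could be named. Values are given for those past 1.5-fold, for the 10 most abundant, for the *D. simulans* genes and for neighbours of genes past 2-fold, and the choice of other genes named was made with their values known. *Cyp1* was left out after the table was read. Of 85 *D. melanogaster* genes, 84 were found in the Ensembl annotation (BDGP6), whose coordinates are printed, and *Cyp6a21* was placed by the table. Table coordinates are printed counted from 1. Neighbours were taken from the tables' spans, as the distance of at most 20 kb. Planned searches of promoters and proteins were not run, and no sequence was used here. Alternatives were another FPKM minimum (none or 10), adding 1 to each FPKM, subtracting the median change of all genes, and the lower fold limit. The fold computation was tested on simulated data. Python 3.11.15, numpy 2.4.6, pandas 2.3.3 and matplotlib 3.10.9 were used.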

Additional observations from a re-analysis of the deposited data

How the results depend on the processing

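No paired analysis was possible because the deposited FPKM values are combined over the 3 libraries of a food and hold no value per replicate. For the same reason no library could be left out. The counts past 2-fold stayed within 1.5 times of the values given with no FPKM minimum, with a minimum of 10, with a pseudocount of 1 and with subtraction of the median change of all genes (shifts of 0.00 in *D. melanogaster* and -0.08 in *D. simulans*). With a minimum of 10 or a pseudocount of 1 the number higher in *D. melanogaster* was 2 in place of 3. At the 1.5-fold limit it was 4, and the number of lower P450 genes in *D. melanogaster* was 1 in place of 0. With a minimum FPKM of 10, which leaves 2 *D. simulans* genes, their median log2 change was 0.80 in place of 0.22 and that of their sum 1.00 in place of 0.83. The values have no spread, so a median or sum was taken as moved from a difference of 0.1 in log2, a tolerance chosen after the files were read. With a pseudocount, 4 of 76 single-gene changes moved that far, by at most 0.27. None of the 76 single-gene changes changed sign with a pseudocount or with centring. Including *Cyp1*, or leaving out the pseudogenes or *Cyp4g1*, settings chosen after the data were seen, moved each median and sum by at most 0.03. With gene spans from the annotation, which lacks *Cyp6a21*, there were 17 clusters with 48 genes. This setting was also chosen after the data were seen. The alternatives planned for *D. sechellia* gave no value, since its table names no P450 gene by symbol.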
